A study of Mus musculus with 45 samples.

Results

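The suppressor of cytokine signaling (SOCS) family was followed through 3 tables of gene counts from mouse microglia and mouse brain. Its 8 genes, *Socs1* to *Socs7* and *Cish*, were taken by name, and all 8 were present in each table, among 55450 genes for microglia from brain slices, 47643 for microglia from adult mice and 43411 for brain tissue. The 45 samples came from C57BL/6 mice. Slice microglia were sorted as CD11b high, CD45 intermediate cells from coronal slices of neonatal brain that had been kept for 2 weeks on a membrane and then treated for 24 h. Treatment was medium alone in 9 samples, tumor necrosis factor (TNF) at 50 ng/mL in 11 samples, and GM-CSF (granulocyte-macrophage colony-stimulating factor) at 20 ng/mL in 9 samples, and the labels state that 3 slices were pooled for each sample. Adult microglia were sorted from female mice of 10 to 15 weeks, 24 h after an intraperitoneal injection of 1 mg/kg lipopolysaccharide (LPS, from the outer membrane of *E. coli*, 4 samples) or of phosphate-buffered saline (PBS, 4 samples). Whole brain was taken from female mice of like age, 4 of them 24 h after LPS at that dose and 4 untreated, so that the tissue controls had received no injection.

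SOCS proteins are feedback inhibitors of cytokine receptors. When a cytokine binds, Janus kinases (JAK) at the receptor phosphorylate STAT transcription factors, and among the genes that STATs switch on are those of the SOCS family. A SOCS protein binds phosphorylated tyrosines through its SH2 domain, while its SOCS box recruits elongins and a cullin to form a ubiquitin ligase. SOCS1, which restrains interferon receptors, and SOCS3, which restrains receptors that share gp130, can also block the kinase itself. CIS (the product of *Cish*) and SOCS2 are classical products of STAT5, the factor used by growth hormone, prolactin, interleukin-3 and GM-CSF. SOCS4 and SOCS5 have been linked to the epidermal growth factor receptor, and SOCS6 and SOCS7 to insulin and receptor tyrosine kinase signaling. In microglia these inhibitors are best known for limiting responses to interferon and to cytokines of the interleukin-6 family.

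Each member is a protein-coding gene, and positions are given on GRCm38. *Socs1* (ENSMUSG00000038037) is at chr16:10782240-10785536 on the minus strand, *Socs2* (ENSMUSG00000020027) at chr10:95385362-95417180 on the minus strand, and *Socs3* (ENSMUSG00000053113) at chr11:117966079-117970047 on the minus strand. *Socs4* (ENSMUSG00000048379) is at chr14:47276931-47296102, *Socs5* (ENSMUSG00000037104) at chr17:87107679-87137839, *Socs7* (ENSMUSG00000038485) at chr11:97362551-97398542 and *Cish* (ENSMUSG00000032578) at chr9:107296026-107302784, all on the plus strand. *Socs6* has the identifier ENSMUSG00000056153. *Cish* was the one member whose exons overlapped those of another gene: Gm17040 and Gm17041, both on the opposite strand, covered 4.07% and 7.46% of its exon bases. In slice microglia Gm17040 held 0 counts in medium, 4 with TNF and 2 with GM-CSF over all libraries, and Gm17041 held 0. Whether strand was used in counting is not given in the sources used here, so reads from the shared bases cannot be told apart.

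Promoter windows from RefSeq, 250 bases before to 50 bases after the transcription start on GRCm38.p6, were matched to 4 of the 8 members, *Socs1*, *Socs3*, *Socs4* and *Cish*, and *Socs2*, *Socs5*, *Socs6* and *Socs7* had no entry. A pair of letter patterns was searched: TTCNNNGAA, the core of the element STAT dimers bind, which reads the same on both strands, and the core of the interferon-stimulated response element, searched on either strand as GAAA, any 2 bases and GAAA again. The matches of *Cish*, *Socs3* and *Socs1* are shown because these are the members with a window that were called in a comparison. *Socs2* was called as well but has no window. All are written 5′ to 3′ on the strand of the gene, with matched bases in capitals. The *Cish* stretch (chr9:107296654-107296682, plus strand) held TTCNNNGAA at 2 places, the *Socs3* stretch (chr11:117969452-117969616, minus strand) at 1 place, and the *Socs1* stretch (chr16:10785537-10785786, minus strand) held the interferon element core at 2 places that overlap.
Cish: cagttTTCCTGGAAagTTCTTGGAAatct
Socs3: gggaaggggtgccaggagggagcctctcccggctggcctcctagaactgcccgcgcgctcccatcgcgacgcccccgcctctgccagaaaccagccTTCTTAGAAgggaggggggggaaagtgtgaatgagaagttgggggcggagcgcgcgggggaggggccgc
Socs1: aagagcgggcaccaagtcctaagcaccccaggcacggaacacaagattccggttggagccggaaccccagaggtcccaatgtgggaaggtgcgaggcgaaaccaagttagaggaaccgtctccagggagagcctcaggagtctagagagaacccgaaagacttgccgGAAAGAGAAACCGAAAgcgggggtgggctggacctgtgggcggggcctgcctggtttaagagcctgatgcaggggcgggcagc
Of 32851 windows in the table, 8.3% held TTCNNNGAA, 0.457% held it at 2 or more places and 3.44% held the interferon element core. Counted from the RefSeq start, the *Cish* matches lay at bases 1 to 9 and 12 to 20 of the transcript. The *Socs3* match lay 154 to 146 bases before its start, and the *Socs1* matches from 83 to 68 bases before its start. The RefSeq starts of *Socs3* (117969366) and *Cish* (107296659) lie inside the gene spans given above, which begin at 117970047 and 107296026 on the strand of the gene. The matches of both genes therefore fall within those spans. The window of *Socs4* held neither pattern. A match of letters is a description and does not show binding.

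Slice libraries held between 5973364 and 9165485 counts, adult microglia libraries between 11391564 and 14216005, and brain libraries between 8199863 and 10368578. The LPS brain libraries (at most 9452488) were all shallower than the untreated ones (at least 9641550). Levels are given as CPM, the counts of a gene scaled to a common library size with edgeR's TMM factors. Differences were tested with edgeR's quasi-likelihood F test over all genes that passed its expression filter, and a gene counted as called where its fold exceeded 1.5 and its p, adjusted after Benjamini and Hochberg, was under 0.05. All 9 microglia markers had counts in every group, and their summed level was 12220 to 29060 CPM in slice microglia, 43600 to 62290 CPM in adult microglia and 317.4 to 505.1 CPM in brain tissue. Markers of neurons summed to at most 11.43 CPM and those of lymphocytes to at most 1.542 CPM in any sorted library, against at least 5460 CPM for neuron markers in brain tissue.

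In slice microglia the family split by cytokine. TNF raised *Socs1*, *Socs2*, *Socs3* and *Cish*, while GM-CSF raised *Socs2* and *Cish* only among the tested members, and by far more than TNF did. *Socs4* to *Socs7* were called in neither comparison. Both comparisons used the same 9 medium samples. Of the 11313 genes tested, 20.8% were called for TNF against medium (9.10% higher and 11.7% lower) and 10.8% for GM-CSF against medium (4.84% higher and 5.96% lower), so that 4 of 8 and 2 of 8 members called higher stand beside 9.10% and 4.84% of all genes.

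*Socs2*, whose protein is best known for restraining growth hormone signaling, had the lowest p-value of all 11313 genes in the GM-CSF comparison. Its level was 2.335, 5.745 and 8.864 CPM (lowest, median and highest library) in medium, 16.86, 21.27 and 27.59 CPM with TNF, and 146.0, 167.8 and 191.7 CPM with GM-CSF. The 3 groups did not overlap: every TNF library lay above every medium library, and every GM-CSF library lay far above both. *Socs2* rose by 4.98 ± 0.16 (log2 fold change ± SE, edgeR adjusted p = 1.3e-22) with GM-CSF, a 31.5-fold change (95% interval 25.1 to 39.5), and by 1.99 ± 0.15 (adjusted p = 2.45e-13) with TNF, a 3.98-fold change. Set against GM-CSF directly, TNF left it 7.92-fold lower (log2 -2.99 ± 0.13, adjusted p = 1.96e-19).

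*Cish*, whose protein binds STAT5 docking sites on receptors, followed the same order at a lower level. It had 24 counts in all 9 medium libraries together, with 0 counts in 4 of them, 298 counts in the 11 TNF libraries and 1436 in the 9 GM-CSF libraries. In CPM the lowest, median and highest libraries were 0, 0.1084 and 1.095 in medium, 1.256, 3.808 and 6.331 with TNF, and 14.26, 20.57 and 34.12 with GM-CSF. Again the 3 groups did not overlap. The fitted rise was 54.7-fold with GM-CSF (95% interval 28.7 to 104.3, log2 5.77 ± 0.46, edgeR adjusted p = 4.4e-12) and 10.5-fold with TNF (5.57 to 19.9, log2 3.39 ± 0.45, adjusted p = 8.67e-08). TNF gave 5.2-fold less *Cish* than GM-CSF (log2 -2.38 ± 0.33, adjusted p = 3.73e-07).

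*Socs3*, the inhibitor of gp130 receptors, was the most abundant member in medium and responded to TNF. Its level was 40.91, 67.3 and 86.61 CPM (lowest, median, highest) in medium, 137.0, 185.6 and 237.5 CPM with TNF, and 48.31, 82.99 and 101.4 CPM with GM-CSF. All 11 TNF libraries lay above every library of both other groups, whereas 3 of 9 GM-CSF libraries lay above the medium range and the other 6 inside it. *Socs3* rose 2.91-fold with TNF (log2 1.54 ± 0.14, edgeR adjusted p = 2.53e-11) and was 2.38-fold higher with TNF than with GM-CSF (log2 1.25 ± 0.14, adjusted p = 3.03e-09). For GM-CSF against medium the difference was 1.22-fold (95% interval 1.00 to 1.49, log2 0.29 ± 0.14, adjusted p = 0.142), which was not called. The adjusted p passed the threshold when libraries were scaled by total counts (log2 0.40, adjusted p = 0.0371), with the fold still under 1.5.

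*Socs1*, the inhibitor of interferon receptors, rose with TNF and was also higher with TNF than with GM-CSF. It had 0.4155, 4.552 and 5.42 CPM (lowest, median, highest) in medium, 5.141, 10.51 and 18.62 CPM with TNF, and 2.456, 3.055 and 5.255 CPM with GM-CSF. Of the 11 TNF libraries, 10 lay above every medium library, and the GM-CSF range lay inside the medium range. *Socs1* rose 3.21-fold with TNF (log2 1.68 ± 0.29, edgeR adjusted p = 1.03e-05) and was 3.31-fold higher than with GM-CSF (log2 1.73 ± 0.29, adjusted p = 9.46e-06). GM-CSF against medium gave log2 -0.04 (95% interval -0.65 to 0.57, adjusted p = 0.939). The lowest medium library, replicate 7, held 3 counts of *Socs1*, and without it the TNF difference was log2 1.53 (adjusted p = 4.29e-06).

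For TNF against GM-CSF, 16.2% of 11313 genes were called, 8.25% higher with TNF and 7.96% lower. Of the 8 members, *Socs1* and *Socs3* were called higher and *Socs2* and *Cish* lower with TNF.

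**Figure D1:**
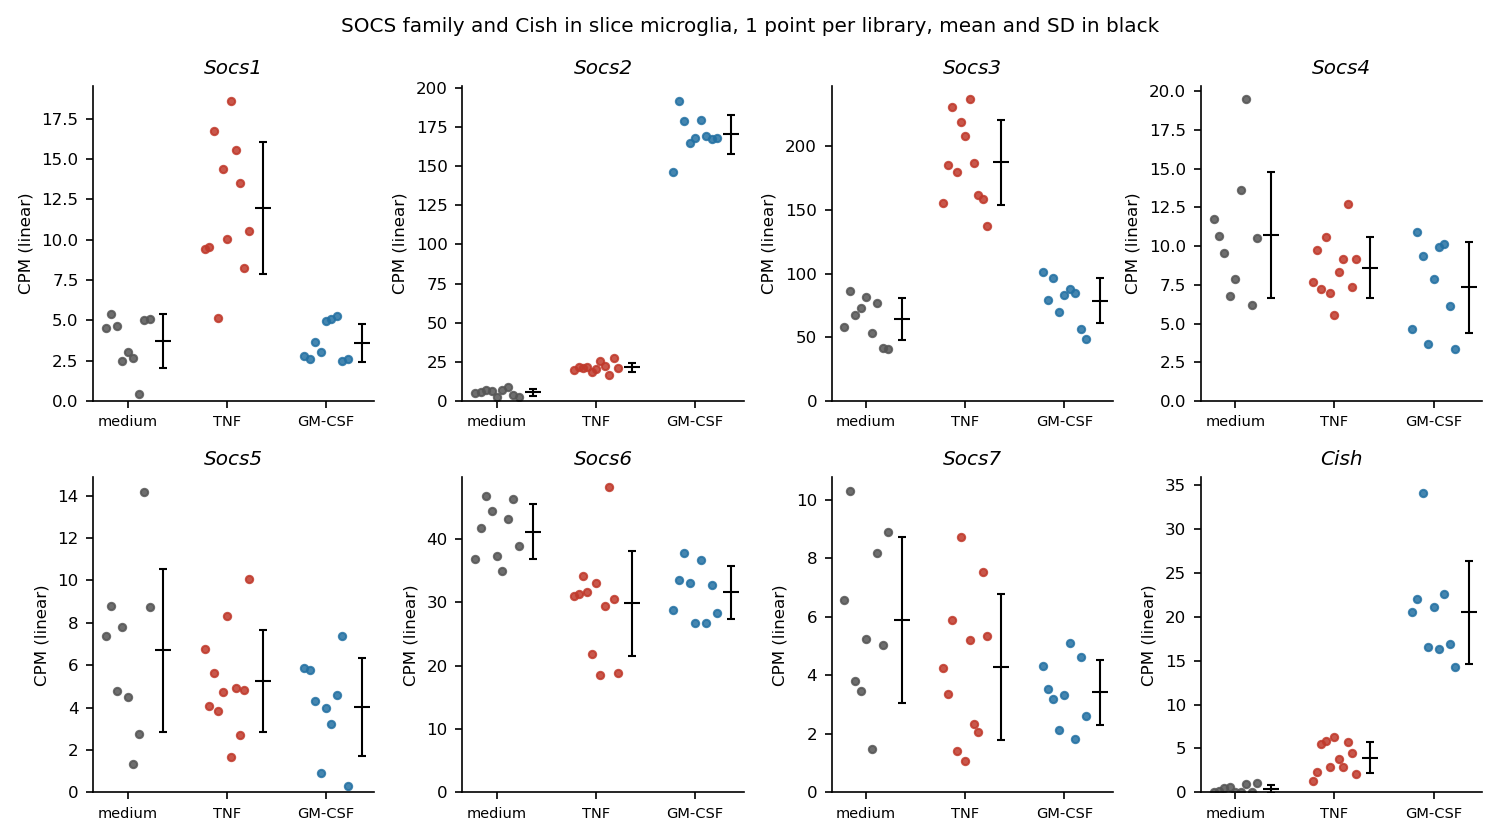
Level of each SOCS family gene in slice microglia, in CPM on a linear axis that differs between panels, for medium (9 samples), TNF (11) and GM-CSF (9). Points are libraries, and lines with bars give the mean ± SD, with the lower bar of *Cish* in medium ending at 0. *Socs2* and *Cish* stand highest with GM-CSF (146.0 to 191.7 CPM and 14.26 to 34.12 CPM), and *Socs1* and *Socs3* stand highest with TNF.

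The remaining members of the family were not called. *Socs6*, a partner of receptor tyrosine kinases, had 34.98 to 46.81 CPM in medium, 18.48 to 48.18 CPM with TNF and 26.67 to 37.68 CPM with GM-CSF. Of the 11 TNF libraries 10 lay below every medium library and 1 above, and 7 of 9 GM-CSF libraries lay below every medium library. The edgeR adjusted p passed the threshold for TNF (0.00334, log2 -0.46 ± 0.13) and for GM-CSF (0.0311, log2 -0.38 ± 0.13), but the folds, 1.38 and 1.30, were under the limit of 1.5. *Socs4*, *Socs5* and *Socs7* had mean levels of 10.7 ± 4.07, 6.70 ± 3.85 and 5.89 ± 2.84 CPM (SD, n = 9) in medium, 8.59 ± 1.97, 5.24 ± 2.41 and 4.29 ± 2.51 CPM (n = 11) with TNF and 7.34 ± 2.95, 4.03 ± 2.30 and 3.42 ± 1.12 CPM (n = 9) with GM-CSF. All 6 of their differences from medium were negative, from log2 -0.32 to -0.78, with edgeR adjusted p from 0.0919 to 0.496. Their intervals were wide at this depth, for example -1.54 to 0.10 for *Socs5* and -1.51 to -0.05 for *Socs7* with GM-CSF, so differences of more than 1.5-fold were within them.

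The counts of *Socs2* and *Socs3* were then compared within each library, where both share depth and preparation. The ratio of *Socs2* to *Socs3* counts was 0.0295, 0.0885 and 0.129 (lowest, median and highest library) in medium, 0.0836, 0.118 and 0.175 with TNF, and 1.44, 2.04 and 3.47 with GM-CSF. *Socs2* therefore had more counts than *Socs3* in 9 of 9 GM-CSF libraries and in none of the 9 medium or 11 TNF libraries. The mean log2 ratio was -3.64 ± 0.63, -3.11 ± 0.31 and 1.15 ± 0.37 (SD), and GM-CSF differed from medium by 4.79, or 27.6-fold (two-sided exact permutation test over samples, p = 4.11e-05, the smallest the 48620 arrangements allow, adjusted p = 0.000103 over 5 comparisons). TNF differed from GM-CSF by -4.26 (exact permutation p = 1.19e-05, again the smallest possible, adjusted p = 5.95e-05).

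For TNF against medium, where both genes rose, the log2 ratio differed by 0.53 (exact permutation p = 0.0163, adjusted p = 0.0271). The slice titles carry 4 codes, 1A, 1B, 2A and 2B, whose meaning the labels do not give, and within codes 1A and 1B the difference was 0.30 (exact permutation test, adjusted p = 0.124) and within 2A and 2B it was 0.77 (adjusted p = 0.0794). The GM-CSF differences from medium within the same codes were 4.52 and 5.0 (exact permutation test, adjusted p = 0.0429 and 0.0119).

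**Figure D2:**
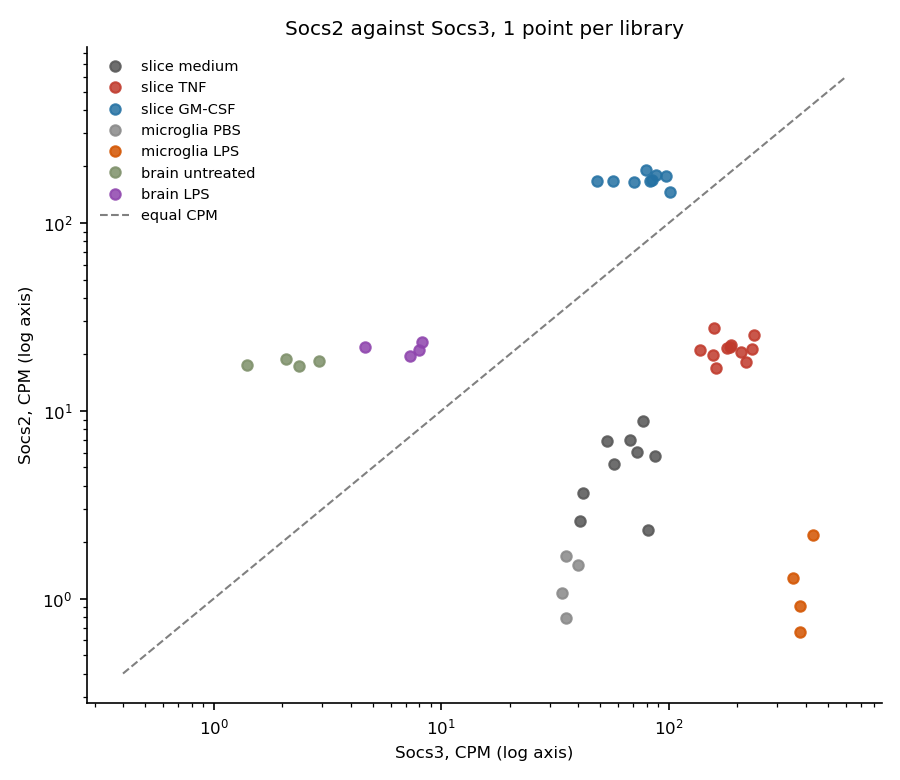
*Socs2* against *Socs3* in each of the 45 libraries, in CPM on logarithmic axes, with one color per group and a dashed line where both levels are equal. The 9 GM-CSF libraries and the 8 brain libraries lie on the *Socs2* side of the line, and the other 28 libraries on the *Socs3* side.

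Per kilobase of the longest principal transcript, which allows levels of different genes to be set side by side, the order of the family changed with the cytokine. In medium *Socs3* led with 25.2 CPM per kb, followed by *Socs6* with 6.81 and *Socs2* with 2.42 CPM per kb, and *Cish* was last with 0.126. The ranges of *Socs2*, *Socs4*, *Socs5*, *Socs1* and *Socs7* overlapped between neighbors in that order. With TNF *Socs3* stood at 73.4 CPM per kb and *Socs2* at 9.68, ahead of *Socs6* (4.94) and *Socs1* (4.12), whose ranges overlapped. With GM-CSF *Socs2* led with 76.7 CPM per kb over *Socs3* with 30.8, and *Cish*, at 7.19, shared its range with *Socs6* at 5.23. The place of *Socs2* rests on the transcript used for length. By all merged exons, which are much longer for *Socs2*, it was 7th in medium, 4th with TNF behind *Socs1* and *Socs6*, and 2nd with GM-CSF behind *Socs3*.

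Across the 29 slice libraries the genes whose log2 CPM ran most nearly alongside each member were listed by Pearson correlation over 11312 other genes, as a description of points that share 3 treatments. For *Socs2* they were *Coro2a* (r = 0.942), *Spint1* (0.937), *Cish* (0.930), *Anp32b* (0.928) and *Fkbp4* (0.922), and for *Cish* the first was *Socs2*, followed by *Shmt2* (0.928). *Socs3* ran with *Slc2a1*, the glucose transporter GLUT1 (r = 0.931), *B430306N03Rik* (0.931) and *M6pr* (0.928), and *Socs1* with *Oas3*, an interferon-inducible antiviral enzyme (0.843), and *Txnrd1* (0.820). Between members, r was 0.722 for *Socs1* and *Socs3* but 0.0671 for *Socs2* and *Socs3*.

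After systemic LPS *Socs3* rose in adult microglia and in brain tissue, and no other tested member was called in either. In adult microglia 27.4% of 12987 genes were called (14.4% higher and 13% lower), against 1 of 7 tested members, and in brain tissue 3.18% of 15083 genes (2.63% higher and 0.550% lower), against 1 of 7.

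*Socs3* had the lowest p-value of all 12987 genes in adult microglia. Its level was 34.1, 39.8, 35.4 and 35.5 CPM in the PBS libraries and 430.4, 350.2, 377.0 and 376.1 CPM in the LPS libraries. The groups did not overlap, and all 4 LPS libraries stood far above the PBS range. The change was 10.6-fold (95% interval 9.30 to 12.1, log2 3.40 ± 0.09, edgeR adjusted p = 6.42e-10). In brain tissue the level was 1.41, 2.92, 2.38 and 2.09 CPM without treatment and 4.64, 8.02, 8.22 and 7.30 CPM with LPS. These groups did not overlap either, although they rested on 14 to 30 and 44 to 68 counts per library. The change was 3.17-fold (95% interval 2.25 to 4.48, log2 1.67 ± 0.23, edgeR adjusted p = 0.00024). In whole tissue, and in any bulk sample, more RNA per cell and more cells of a type cannot be told apart.

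The LPS effect on *Socs3* differed between sorted microglia and tissue by log2 1.73 ± 0.25, or 3.33-fold (edgeR interaction over 16 samples, adjusted p = 2.04e-05). Of 16676 genes tested, 19.7% were called for this difference, 9.10% with the higher effect in adult microglia and 10.6% with the lower. Tissue, library kit and type of control coincide in this comparison and cannot be told apart. Of all 8 members, which were tested in this joined fit, *Socs3* alone was called. *Socs6* passed the adjusted p (0.00139) with log2 -0.54 ± 0.12, a 1.46-fold difference just under the limit, and it was called without LPS adult microglia replicate 2 (log2 -0.62, adjusted p = 6.06e-05) or without untreated brain replicate 3 (log2 -0.60, adjusted p = 0.00098).

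Within adult microglia *Socs6* had 94.97, 99.4, 101.2 and 98.0 CPM with PBS and 69.4, 89.9, 78.2 and 74.7 CPM with LPS. All 4 LPS libraries lay below every PBS library, and the edgeR adjusted p was 0.00418, but the 1.26-fold difference (log2 -0.34 ± 0.08) was under the limit. In brain tissue it had 23.3 ± 2.20 CPM without treatment and 26.8 ± 1.95 CPM with LPS (SD, n = 4 each, log2 0.20, edgeR adjusted p = 0.155).

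*Socs2* and *Cish*, the members that answered to GM-CSF in slices, were scarce in adult microglia. *Socs2* had 11 to 21 counts per PBS library and 9 to 30 per LPS library, or 1.27 ± 0.41 and 1.26 ± 0.67 CPM (SD, n = 4 each). A change was not detectable at this depth, since the 95% interval ran from 0.541- to 1.86-fold (edgeR adjusted p = 0.995). *Cish* had 9 to 16 and 4 to 14 counts per library and did not pass the expression filter in this table. In brain tissue *Socs2* had 17.6, 18.4, 17.4 and 18.9 CPM without treatment and 21.8, 21.2, 23.2 and 19.7 CPM with LPS. Every LPS library lay above every untreated one, yet the difference was 1.19-fold (log2 0.25 ± 0.08) and was not called (edgeR adjusted p = 0.0617). *Cish* stood at 6.35 ± 1.08 and 6.97 ± 0.56 CPM (SD, n = 4 each, log2 0.13, 95% interval -0.19 to 0.46, edgeR adjusted p = 0.658).

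*Socs1*, which TNF raised in slices, had 5.02 ± 1.02 CPM with PBS and 5.29 ± 1.5 CPM with LPS in adult microglia (SD, n = 4 each). The ranges overlapped, and the log2 difference was 0.08 (95% interval -0.45 to 0.60, edgeR adjusted p = 0.808). In brain tissue it held 3 to 11 counts per library and did not pass the expression filter. *Socs4*, *Socs5* and *Socs7* differed by log2 -0.07 to -0.03 in adult microglia and by -0.03 to 0.07 in brain tissue, with edgeR adjusted p of at least 0.432. The brain intervals of these 3 genes were narrow, the widest from -0.21 to 0.16 for *Socs4*.

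**Figure D3:**
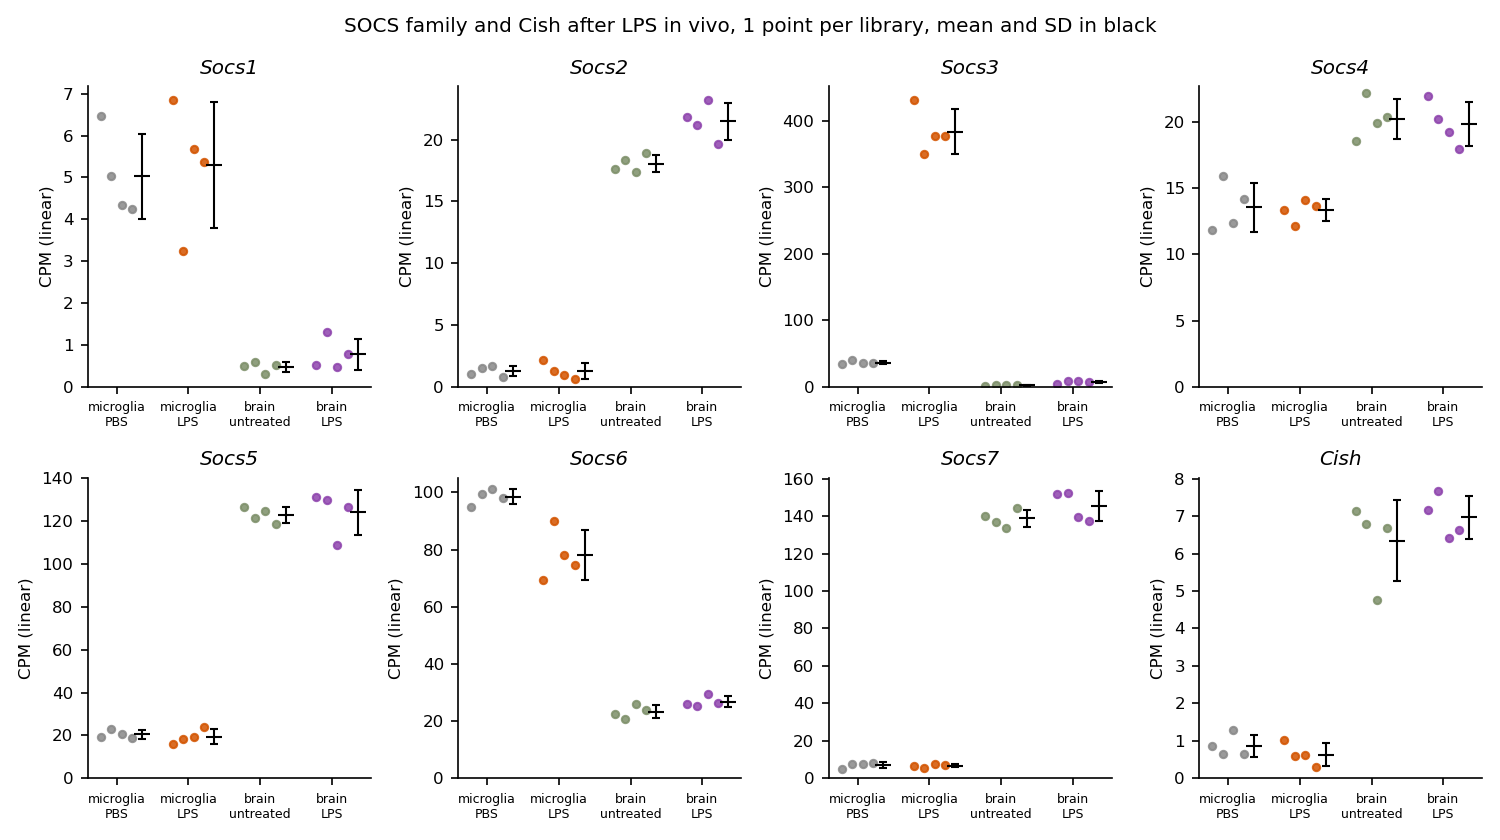
Level of each SOCS family gene in adult microglia (PBS and LPS, 4 samples each) and in brain tissue (untreated and LPS, 4 samples each), in CPM on a linear axis that differs between panels. Points are libraries, and lines with bars give the mean ± SD. *Socs3* separates LPS from control in both (350.2 to 430.4 CPM against 34.1 to 39.8 CPM in adult microglia), and *Socs5* and *Socs7* stand far higher in brain tissue than in microglia.

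The ratio within libraries went the opposite way to that with GM-CSF. *Socs3* counts were 20.5 to 42.8 times those of *Socs2* in the PBS libraries and 193.5 to 537.9 times in the LPS libraries, a change of the log2 ratio by -3.48 (two-sided exact permutation test, p = 0.0286, the smallest 70 arrangements allow, adjusted p = 0.0286). In brain tissue *Socs2* had more counts than *Socs3* in all 8 libraries, 6.21 to 12.1 times without treatment and 2.64 to 4.66 times with LPS, and the log2 ratio changed by -1.42 (exact permutation p = 0.0286, again the smallest possible, adjusted p = 0.0286).

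Brain tissue and sorted microglia held the family in a different order. Per kilobase, *Socs5* (26.4 CPM per kb) and *Socs7* (19.8) led in untreated brain, followed by *Socs2* (8.13), and *Socs3* (0.861) and *Socs1* (0.165) were last. In PBS adult microglia *Socs6* (16.3 CPM per kb) and *Socs3* (14.19) led, and *Socs5* (4.40) and *Socs7* (0.995) stood well below their level in brain. By all merged exons *Socs3* stood ahead of *Socs6* in PBS microglia, and *Socs2* was 5th in untreated brain, behind *Socs4* and *Socs6*. With LPS *Socs3* reached 150.2 CPM per kb in adult microglia, ahead of *Socs6* at 12.9, while in brain tissue it moved up to 2.76, where its range overlapped those of *Socs4* (2.88) and *Cish* (2.45). The tables were normalized separately and the library kits differ, so these levels were set side by side and not tested.

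**Figure D4:**
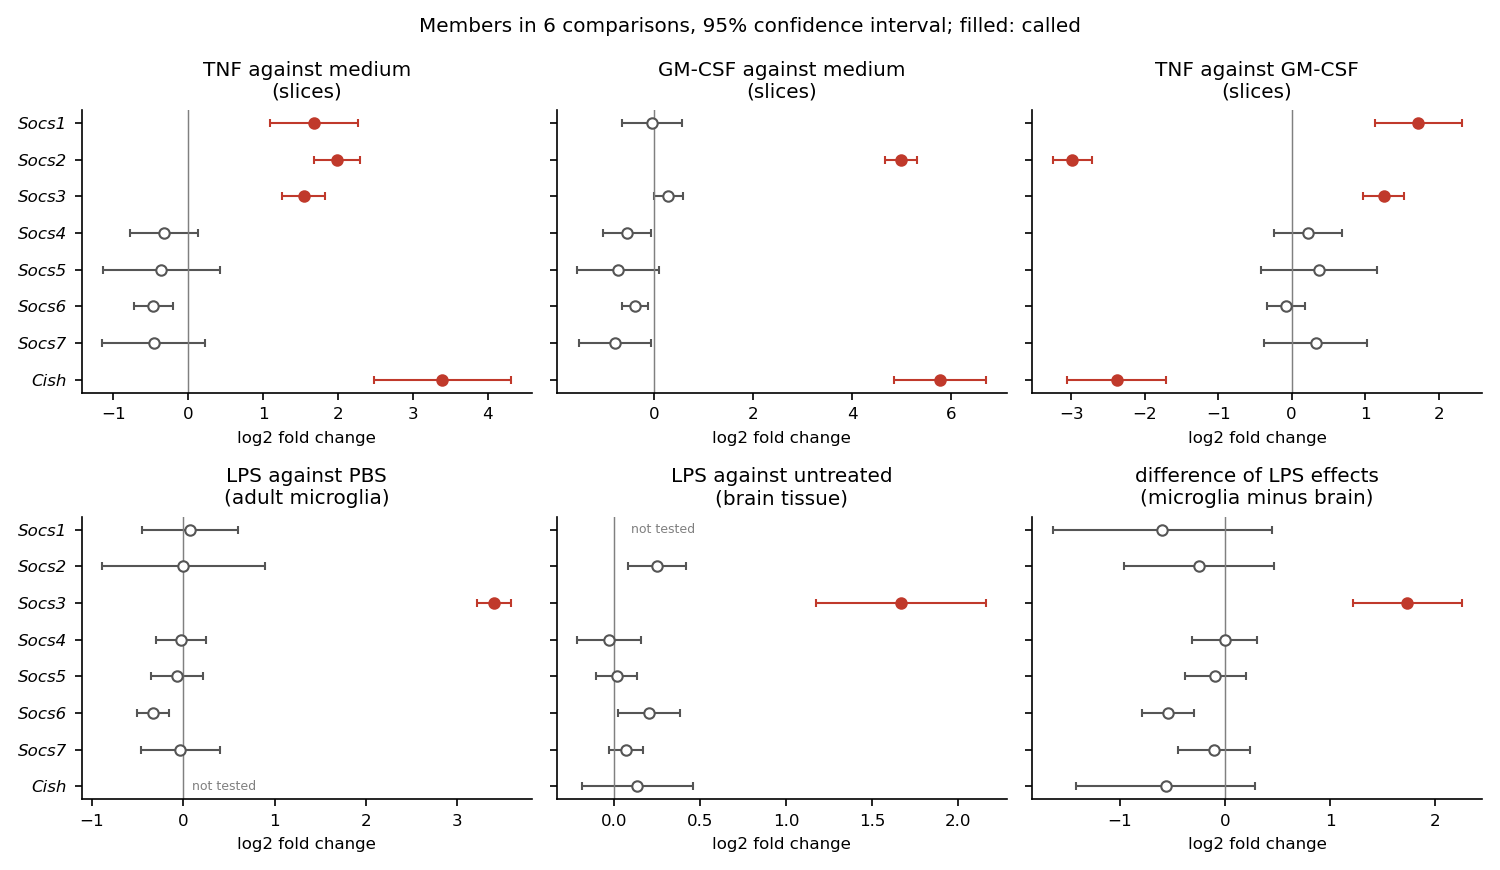
Log2 fold change of each SOCS family gene in the 5 comparisons of groups and, in the last panel, the difference of the LPS effects (adult microglia minus brain tissue), each with its 95% interval from edgeR and filled where it was called, with *Cish* not tested in adult microglia and *Socs1* not tested in brain tissue. *Socs2* and *Cish* reach 4.98 and 5.77 with GM-CSF, *Socs3* reaches 3.40 with LPS in adult microglia, and *Socs4*, *Socs5*, *Socs6* and *Socs7* are called in none.

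The wider cytokine pathway was counted over 9 lists: the ligase partners of the SOCS box, JAK kinases, other JAK-STAT inhibitors, cytokine receptors, cytokine ligands, genes linked to STAT5, to STAT3 or to interferon, and feedback genes of NF-kB, the factor that TNF and LPS activate. Over all genes tested the median log2 difference was at most 0.0391 from 0 in each of these comparisons. Counts of called genes below stand beside the shares of all genes called. These were 20.8% for TNF against medium, 10.8% for GM-CSF against medium and 16.2% for TNF against GM-CSF. For LPS they were 27.4% in adult microglia and 3.18% in brain tissue. Some counts lay near these shares, such as 1 of 4 JAK genes and 2 of 10 other inhibitors with LPS in adult microglia.

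With TNF, all 10 interferon-linked genes rose (median log2 4.44), among them *Cxcl10* (5.84), a chemokine that attracts T cells, *Gbp2* (5.67), a guanylate-binding GTPase, and *Ifit1* (4.66). All 8 NF-kB feedback genes rose as well (median 1.77), including *Nfkbia* (2.01), which encodes the inhibitor that holds NF-kB in the cytoplasm, and *Birc3* (2.02). Of 9 STAT3-linked genes tested 7 rose (median 1.17), led by *Il1rn* (4.26), the antagonist of the interleukin-1 receptor, and of 8 STAT5-linked genes 4 rose (median 0.50), with the cyclin genes *Ccnd2* (1.67) and *Ccnd1* (1.48) leading. Among 6 ligands 3 rose, with *Il6* first (4.45), and 1 fell, *Clcf1* (-1.78). Among 22 receptors 5 rose and 3 fell, from *Il2rg*, the common gamma chain (1.93), to *Lifr*, the receptor of leukemia inhibitory factor (-2.35). *Usp18*, an inhibitor of the interferon receptor, was the one called gene of 10 other inhibitors (4.33), *Ube2f* the one of 6 ligase partners (0.60), and none of 4 JAK genes was called.

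With GM-CSF, of 8 STAT5-linked genes 5 rose and 2 fell (median 0.69), including *Ccnd2* (1.76) and the kinase gene *Pim1* (1.57) among the risers, and the transcriptional repressor gene *Bcl6* (-3.17) among the fallers. Of 10 interferon-linked genes 6 fell and none rose (median -0.89), with *Mx1* (-3.09), *Cxcl9* (-2.52) and *Ifit3* (-1.54) lowest. Of 8 NF-kB feedback genes 3 fell, *Tnfaip3* (-0.75), *Nfkbie* (-0.74) and *Relb* (-0.71), and none rose. STAT3-linked genes were mixed, with 3 of 9 higher and *Saa3* (-2.44) lower. *Csf2rb*, the signaling chain of the GM-CSF receptor, was the one receptor of 22 that rose (1.09), while 5 fell. Of 6 ligands *Il6* (3.84) and *Osm* (0.66) rose, *Usp18* (-1.17) and *Jak3* (-0.59) fell as the called genes of their lists, with *Jak3* called in 6 of 13 alternatives, and no ligase partner was called. The genes of both STAT5 proteins, *Stat5a* (-0.20) and *Stat5b* (0.12), were not called (edgeR adjusted p = 0.611 and 0.683).

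Set against GM-CSF directly, TNF gave higher levels of all 10 interferon-linked genes (median 5.52), all 8 NF-kB feedback genes (2.13) and 6 of 9 STAT3-linked genes (1.09). Of 8 STAT5-linked genes 3 were higher and 1 lower, *Myc* (-1.10). For the other lists, 2 of 4 JAK, 7 of 22 receptor, 3 of 6 ligand, 1 of 10 inhibitor and 1 of 6 ligase partner genes were higher, and 2 receptors were lower.

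LPS in adult microglia raised 8 of 9 STAT3-linked genes (median log2 1.57), from *Saa3*, an acute-phase gene (10.68), and *Il1rn* (4.66) to *Bcl3* (4.06). It also raised 8 of 9 interferon-linked genes (median 2.36, *Cxcl10* 3.34), 5 of 7 STAT5-linked genes (median 0.83, *Ccnd2* 5.33, *Pim1* 3.68) and 4 of 8 NF-kB feedback genes (median 0.57, *Nfkb2* 1.45), with none of these lists showing a called fall. The folds of *Ccnd2* and *Pim1* started from low levels, with means of 0.20 and 0.81 CPM with PBS. With LPS *Ccnd2* had 1.46 to 10.9 CPM and *Pim1* 6.76 to 13.3 CPM. Receptors gave 6 higher and 2 lower of 21, with *Csf2ra*, the binding chain of the GM-CSF receptor, at 1.52, and ligands gave 2 higher (*Tnf* 4.18, *Csf1* 2.02) and 2 lower of 6, of which *Il6* fell by 2.07. *Usp18* (2.52), *Ptpn1* (0.81) and *Jak3* (0.91) were the called genes of their lists, and no ligase partner was called.

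In brain tissue all 9 interferon-linked genes tested rose (median 2.05, *Irf7* 3.14), along with 5 of 8 STAT3-linked genes (median 1.01), including *Saa3* (9.32) and *Lcn2* (9.07). Of 23 receptors 9 rose, led by *Il2rg* (2.02) and *Csf2rb* (1.89). *Myc* (0.65), *Nfkb2* (1.13) and *Jak3* (0.83) were each the one called gene of their list, with *Myc* called in 10 of 16 alternatives (not with DESeq2, the replicate block or without LPS replicate 2 or 4 or untreated replicate 2 or 4), *Usp18* (2.32) and *Ptpn6* (0.91) rose among 10 other inhibitors, and no ligand of 3 tested and no ligase partner was called.

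**Figure D5:**
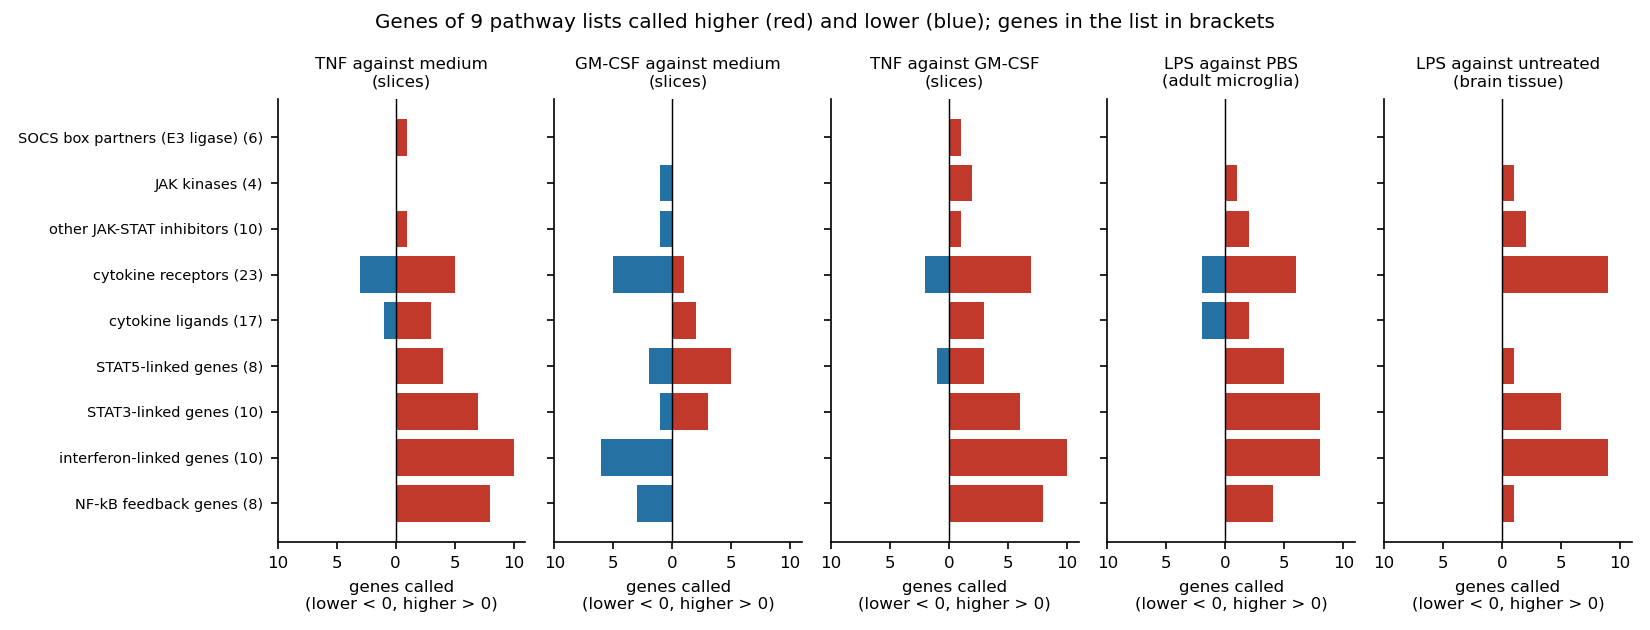
Number of genes called higher and lower in each of the 9 cytokine pathway lists, by comparison, on a linear axis in genes that runs to the right for higher and to the left for lower. All 10 interferon-linked genes were called higher with TNF and 6 of 10 lower with GM-CSF, whereas LPS raised 8 of 9 in adult microglia and 9 of 9 in brain tissue.

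Levels of other cell types moved with some of these groups. In slices the summed level of 9 microglia markers was 20580 to 29060 CPM in medium, 12220 to 16060 CPM with TNF and 15460 to 17160 CPM with GM-CSF. The 5 monocyte markers summed to 750.4 to 1882, 1246 to 4037 and 1473 to 3526 CPM, most of it *Fn1* (means of 1190, 2613 and 2384 CPM), while *Ly6c2* and *Plac8* were at 0 in medium and *Plac8* at 0 with GM-CSF. *Ccr2* was lower with TNF (means of 1.11, 0.25 and 0.90 CPM), and *Vcan* was higher (0.07, 0.57 and 0.22 CPM). The 6 neutrophil markers summed to 0.134 to 14.0, 2.11 to 113.3 and 1.08 to 42.8 CPM, with *Ly6g* at 0 in all 3 groups. The 5 border macrophage markers summed to 288.4 to 697.2, 305.5 to 541.3 and 300.6 to 862.3 CPM. In medium, with TNF and with GM-CSF the means of *Mrc1* were 96.4, 29.6 and 125.4 CPM. Those of *Lyve1* were 3.09, 0.33 and 1.68 CPM, and those of *Cd163* 3.98, 1.20 and 1.33 CPM. *Pf4* had means of 38.0, 34.7 and 55.2 CPM, and *F13a1* of 302.6, 346.0 and 323.5 CPM. Astrocyte markers reached at most 60.6 CPM, oligodendrocyte markers 299.5 CPM and endothelial markers 19.2 CPM in slice libraries. In adult microglia, PBS and LPS libraries had 56120 to 62290 and 43600 to 47450 CPM of microglia markers, 7.33 to 9.27 and 28.9 to 191.1 CPM of monocyte markers, 32.6 to 69.4 and 1.61 to 7.66 CPM of neutrophil markers, 9.58 to 14.6 and 23.7 to 36.0 CPM of border macrophage markers, and 28.9 to 36.3 and 10.2 to 13.7 CPM of endothelial markers. The monocyte rise was mostly *Fn1* (means of 0.39 and 102.3 CPM with PBS and LPS). *Plac8* (0.80 and 1.00) and *Vcan* (0.09 and 0.27) were slightly higher, but *Ccr2* (6.47 and 3.68) and *Ly6c2* (0.55 and 0.12) were lower. The endothelial sum was mostly *Pecam1* (32.7 and 10.9 CPM). *Cldn5* and *Tek* were at 0, and *Cdh5* (0.29 and 0.54) and *Flt1* (0.13 and 0.42) were slightly higher with LPS. In brain tissue microglia markers summed to 317.6 to 355.6 CPM without treatment and 317.4 to 505.1 CPM with LPS, neutrophil markers to 0.503 to 1.04 and 3.06 to 7.41 CPM, and oligodendrocyte markers to 5224 to 5618 and 3773 to 4434 CPM. The part of these differences in the results above was not tested.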

How the data were processed

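RNA sequencing was done on sorted microglia and on brain tissue, 45 samples in 7 groups assigned from the labels. The slice microglia values are raw read counts per gene as the authors deposited them, whole and not normalized, made with STAR 2.7.0a and featureCounts of Subread 1.6.4 on mm10 per the submitters' processing notes. For adult microglia and brain tissue the authors deposited expected counts per gene, not normalized, and for these no aligner or counter is given in the sources used here. Both kinds of microglia went through a low-input template-switching kit with tagmentation, and brain tissue through a TruSeq preparation. No library carried molecular identifiers.

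The 70872 adult microglia values and 69680 brain values that were not whole were rounded. Among the brain rows, 92 naming no gene held 0 counts and were left out. Gene names and coordinates came from GENCODE M21 on GRCm38. The unnamed identifiers of the adult microglia and brain tables held 0.092% and 0.126% of their counts.

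Tests were run in edgeR 4.0.16 (R 4.3.3, quasi-likelihood F test) with TMM factors, robust estimation and its expression filter (minimum count 10, minimum total 15), with Benjamini-Hochberg adjustment over all genes of a comparison. The thresholds were those of the study's methods. The 29 slice samples shared one fit, adult microglia and brain tissue were fitted alone, and the interaction used the 16 in vivo samples. CPM are TMM-scaled, and errors are standard deviations of libraries or standard errors of fitted log2 values. The ratio of *Socs2* to *Socs3* used counts plus 0.5 and a two-sided exact permutation test over samples in SciPy 1.17.1, adjusted over 5 comparisons. A further list of the pathway is not reported here. Each list was described by its counts, its median and up to 3 called genes of the largest change, and *Stat5a* and *Stat5b* were named after their values were seen. The scripts were checked on simulated counts. Alternatives were RLE factors, total counts, other filters, DESeq2 1.42.0, limma-voom (limma 3.58.1), a replicate block, title codes, and leaving out libraries.

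The members and lists were chosen with earlier results of these data known. Per the study, the slice data were pooled from 4 independent experiments and the in vivo samples came from separate mice. The labels do not say which experiment a slice sample came from. Neither the main slice fit nor the permutation test of the ratio held a term for experiment. No pair of libraries was identical or within sampling noise (chi-square per degree of freedom of at least 1.8). Samples were not treated as paired by replicate number. Deviations from the group mean correlated between same-numbered libraries at r from -0.0779 to 0.184. Of 9 same-numbered TNF and medium pairs, 4 correlated best with their own number. The slice titles also carry a running number after the code, which was not used to match samples. The replicate block joined libraries by replicate number alone, so matching by the running numbers was not tested.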

Additional observations from a re-analysis of the deposited data

Results flagged for a closer look

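Within groups of 4 to 10 libraries, the gap of the lowest or highest library to its neighbor was divided by the range of the group and set against Dixon's 95% critical value. Of 48 such groups of member values 2 passed, where chance flags about 1 in 20. The *Socs1* level of slice medium replicate 7 was 0.416 CPM (3 counts) while the other 8 medium libraries lay at 2.46 to 5.42 CPM, a ratio of gap to range of 0.652. The *Cish* level of untreated brain replicate 3 was 4.76 CPM against 6.69 to 7.14 CPM in the other 3 libraries, a ratio of 0.838.

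The LPS effect on *Socs3* differed between adult microglia and brain tissue by log2 1.73 in edgeR's interaction test (adjusted p = 2.04e-05). *Socs3* was higher with LPS in 4 of 4 libraries of both.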

How the results depend on the processing

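Every called member kept its direction and its call under every alternative run, with ranges of log2 4.82 to 5.14 for *Socs2* and 5.39 to 6.46 for *Cish* with GM-CSF, 1.35 to 2.02 for *Socs1*, 1.78 to 2.21 for *Socs2*, 1.47 to 1.64 for *Socs3* and 3.11 to 3.97 for *Cish* with TNF, and 3.34 to 3.45 (adult microglia) and 1.5013 to 1.84 (brain tissue) for *Socs3* with LPS. Total counts in place of TMM moved the median of all genes for TNF against GM-CSF from -0.0227 to -0.194. The alternatives for pathway genes, the fits without medium replicate 7 and the ratio for TNF without single libraries were added after seeing the data.

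Values that changed sign were small and not called before or after. *Socs1* with GM-CSF was 0.0591 with total counts, 0.1032 with limma-voom and 0.3349 in codes 2A and 2B. *Socs2* with LPS in adult microglia was -0.0039 with RLE, -0.0088 with total counts, -0.0189 without a filter, -0.0056 with DESeq2 and -0.0711 with limma-voom. *Socs4* in the interaction was 0.0231 without a filter and 0.0019 with limma-voom. Leaving out single libraries gave -0.0806 to 0.2496 (*Socs1*), -0.4154 to 0.2217 (*Socs2*), -0.0848 to 0.0595 (*Socs4*), -0.1869 to 0.0058 (*Socs5*) and -0.1809 to 0.0643 (*Socs7*) in adult microglia, -0.0826 to 0.0191 (*Socs4*) and -0.0142 to 0.0716 (*Socs5*) in brain tissue, and -0.0649 to 0.0788 for *Socs4* in the interaction. The causes were not tested.

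With the adjusted p alone, 2 members in place of 1 were called for LPS in adult microglia and 2 in place of 1 in the interaction. The added member was *Socs6* in each. *Socs6* was also added for TNF and for GM-CSF against medium (edgeR adjusted p = 0.00334 and 0.0311). In that setting 48 and 30 pathway genes were called for GM-CSF against medium and in the interaction. Dropping the fold limit can only raise the share of all genes called, and these counts were not set against that share. Leaving out single libraries gave 1 to 2 members called in the interaction. Among the called pathway genes of the largest change in each list, all kept their sign, and 19 of 22 (TNF), 11 of 21 (GM-CSF), 18 of 24 (LPS, adult microglia) and 12 of 15 (LPS, brain) kept their call in every setting. Of the GM-CSF falls, *Mx1*, *Cxcl9*, *Ifit3*, *Nfkbie*, *Tnfaip3*, *Saa3* and *Jak3* were among those that did not, nor did *Myc*, *Saa3* and *Lcn2* in brain tissue. Of the GM-CSF rises, *Pim1* lost its call in codes 1A and 1B and *Osm* in codes 2A and 2B. With TNF, *Pim1*, *Clcf1* and *Ube2f* lost theirs in at least 1 setting. For LPS in adult microglia, *Cxcl10* and *Usp18* lost theirs with limma-voom and with the replicate block. *Irf7*, *Mx1* and *Relb* were also among the genes not called there in every setting.

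The log2 ratio of *Socs2* to *Socs3* for TNF against medium no longer passed an adjusted p of 0.05 in codes 1A and 1B (0.2982), in codes 2A and 2B (0.7657) and with the replicate block (0.417, exact permutation test, adjusted p = 0.111), and lay between 0.348 and 0.6143 without single libraries, all with an adjusted p under 0.05. For LPS it was -3.7267 to -3.2351 (adult microglia) and -1.6184 to -1.2416 (brain tissue) without single libraries and -3.4813 and -1.4223 with the replicate block, where too few arrangements remain to pass 0.05. The replicate block turned *Socs7* for TNF against GM-CSF to -0.0202, *Socs2* with LPS in adult microglia to -0.0536 and *Socs4* in the interaction to 0.002, and with it the adjusted p of *Socs3* for GM-CSF against medium was 0.0358 (log2 0.30).

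Depth limits *Socs1* in brain tissue and *Socs2* and *Cish* in adult microglia, which held 3 to 11, 9 to 30 and 4 to 16 counts per library.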
